A study of Mus musculus with 15 samples.

Results

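The arrays held 73 transcript clusters for small nucleolar RNAs (snoRNAs) and small Cajal body RNAs among the 65956 clusters tested. A transcript cluster is the array's unit for 1 transcribed region. The members were all clusters whose only gene symbol began with *Snord* (box C/D, 48 clusters), *Snora* (box H/ACA, 19 clusters) or *Scarna* with a number (Cajal body, 6 clusters), whatever their signal. They carried 69 different symbols, because *Snora73b*, *Snord13*, *Snord58b* and *Snord118* each had 2 clusters. A further 45 clusters named such an RNA together with other genes and were kept out. The row IDs placed the members on 19 chromosomes and left 4 of them unplaced.

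RNA was measured in whole fetal gonads, freed of mesonephros, of C57BL/6 mice at embryonic day E15.5, on 5 arrays for each of 3 groups. The dKO XY gonads were *Amh*-/-; *Inhbb*-/- and so lacked anti-Müllerian hormone and the beta B subunit of activin B, both products of Sertoli cells. Control XX ovaries and control XY testes came from wild type littermates in the same *Amh*+/-; *Inhbb*+/- crosses. These were whole organs of mixed cell types with no cells sorted, so a lower signal from fewer cells of a type and from less RNA per cell cannot be told apart.

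Box C/D snoRNAs guide the methylation of ribose in ribosomal RNA by a particle that holds fibrillarin, and box H/ACA snoRNAs guide pseudouridylation by a particle that holds dyskerin. Cajal body RNAs guide the same reactions on spliceosomal RNAs. In mammals most of them are cut out of the introns of other genes, many of which encode ribosomal or nucleolar proteins and start with a run of pyrimidines, and a few such as U8 (*Snord118*) and U13 (*Snord13*) have their own promoters.

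The start sites of the genes that hold the members were read first, because most members have no promoter of their own. By their position among RefSeq genes, 61 of the 73 members lay within 1 gene, 6 lay within several and 6 lay within none. The members within 1 gene had 52 holding genes, of which 40 had 43 start sites in the RefSeq promoter table (GRCm38.p6). The other genes, *Rpl23a* of *Snord42a* among them, were not read. A run of at least 6 bases that were all C or T, touching the 5 bases on either side of the start, was present at 12 of these 43 sites (27.9%), and at 6631 of all 32851 start sites in the table (20.2%). Windows of the strand transcribed, from 25 bases before the start to 20 bases from it, are shown for the holding genes of 6 clusters described further on, with the longest C or T run near the start in capitals.
*Gnl3*, which holds *Snord69*, chr14:31019112-31019156, minus strand: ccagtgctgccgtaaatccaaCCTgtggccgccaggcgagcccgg
2410006H16Rik, which holds *Snord49a* and *Snord49b*, chr11:62602852-62602896, plus strand: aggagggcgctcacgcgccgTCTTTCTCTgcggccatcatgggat
*Nop56*, which holds *Snord110*, chr2:130274387-130274431, plus strand: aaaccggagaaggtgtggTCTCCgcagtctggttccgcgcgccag
*Rpl13a*, which holds *Snord35a*, chr7:45128726-45128770, minus strand: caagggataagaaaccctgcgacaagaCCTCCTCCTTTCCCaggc
*Srcap*, which holds *Snora30*, chr7:127511958-127512002, plus strand: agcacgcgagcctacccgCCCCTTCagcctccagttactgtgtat
*Snhg18*, which holds *Snord123*, chr15:32244643-32244687, minus strand: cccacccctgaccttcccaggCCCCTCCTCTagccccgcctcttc
The run was 14 bases long at *Rpl13a*, 10 at *Snhg18*, 9 at 2410006H16Rik and 7 at *Srcap*, and shorter than 6 at *Nop56* (5) and *Gnl3* (3). A run of this kind is a match of letters and not a measured site.

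All values are deposited log2 signals, and 1 unit on this scale is called 2-fold by convention. The median member had a mean signal of 10.4 over the 15 arrays, where the median of all clusters was 5.26. The background limit, the 95th percentile of antigenomic probe sets that match no mouse sequence, was 5.95, and 67 members passed it in at least 1 group. The 5 members with the highest mean signal were *Snord82* (16.5), *Snord110* (15.91), *Snord69* (15.89), *Snord87* (15.32) and *Snord49b* (15.26), although signals of different clusters also depend on their probes. They lie within the genes for nucleolin, NOP56, GNL3 (nucleostemin), *Snhg6* with *Mcmdc2*, and 2410006H16Rik. 4 members passed 16 on at least 1 array, which is above the ceiling of a 16-bit scanner on a plain log2 scale. The deposited scale therefore departs from plain log2, over a range that is not known. The SD between the 5 arrays of a group had a median of 0.31 in dKO XY, 0.29 in control XX and 0.26 in control XY over the members.

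The targeted gene *Amh* averaged 4.51 in dKO XY, 4.31 in control XX and 11.47 in control XY, and *Inhbb* 9.27, 9.18 and 10.53 in the same order. The median of all clusters on an array lay between 5.17 and 5.33 in all 15. The difference between positive and negative control probe sets, a measure of array quality, ran from 4.65 to 5.08 in dKO XY, 4.82 to 5.21 in control XX and 4.31 to 5.08 in control XY, with control XY replicate 5 the lowest.

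The classes were compared first by their mean signal on each array. Box C/D clusters averaged 10.91, 10.71, 10.96, 11.2 and 11.24 on the dKO XY arrays, 10.68, 10.76, 10.67, 10.52 and 10.49 on the control XX arrays, and 10.97, 10.66, 10.68, 10.73 and 10.74 on the control XY arrays. Only dKO XY replicate 2 fell within the range of control XX, and control XY replicate 1 stood above the other control XY arrays. Box H/ACA clusters averaged 9.4 to 9.85 in dKO XY, 9.37 to 9.77 in control XX and 9.24 to 9.53 in control XY, and all 3 ranges overlapped. Within each array, the mean of the box C/D clusters exceeded the mean of the box H/ACA clusters by 1.21 to 1.51 in dKO XY, 0.99 to 1.12 in control XX and 1.13 to 1.46 in control XY. Of these ranges, that of control XX lay below both others. The Cajal body mean overlapped among all groups, with 11.27 to 11.52 in dKO XY, 11.45 to 11.69 in control XX and 11.21 to 11.61 in control XY.

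**Figure D1:**
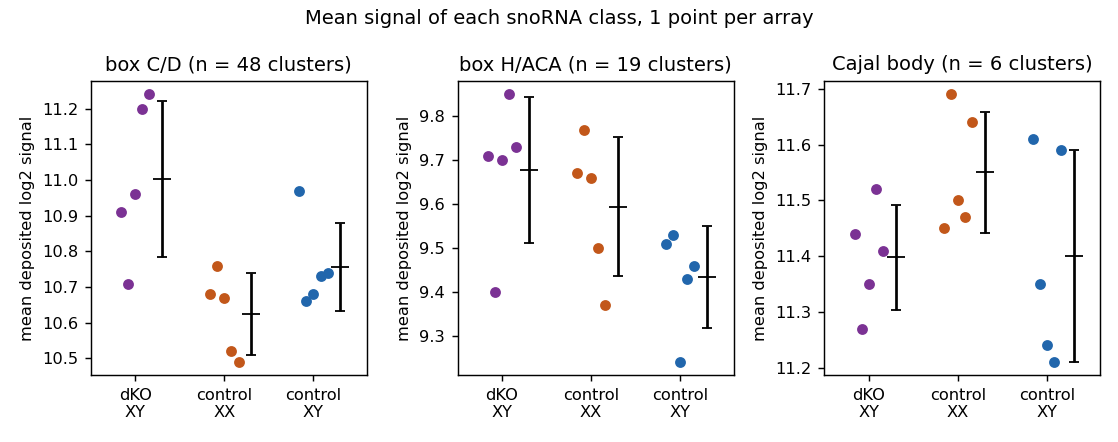
Mean deposited log2 signal (vertical axis) of the box C/D, box H/ACA and Cajal body clusters on each array, with 1 point per array and the mean ± SD of 5 arrays as a bar beside it. The dKO XY arrays reach 11.24 in box C/D, where control XX lies between 10.49 and 10.76, and the box H/ACA and Cajal body ranges overlap between all groups. The vertical axes do not start at 0.

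To find which snoRNAs differed between dKO XY gonads and control XY testes, each cluster was tested with limma over all 15 arrays. A call required both a difference of 1 unit or more and a p below 0.05 after Benjamini-Hochberg adjustment across the 65956 clusters. No member was called higher (0.567% of all clusters were) and none was called lower (1.62% of all clusters). At an unadjusted p below 0.05, limma gave 20 members higher (27.4%, against 10% of all clusters) and 1 lower (1.37%, against 11.9%), and the methods' unmoderated analysis of variance also called 0. At the adjusted p alone, 6 members were higher in dKO XY (8.22%, against 4.41% of all clusters) and 0 were lower (against 6.02% of all clusters). Most of all clusters were dim, unlike the members. Among the 27762 clusters above the background limit, refitted without the rest, 11.5% were higher, and 12 of the 67 members there were. The difference lay above 0 for 60 of the 73 members (82.2%, against 51.7% of all clusters). The members share the same arrays, and their mean per array overlapped, at 10.42 to 10.87 in dKO XY and 10.35 to 10.64 in control XY. The median difference was 0.19, where all clusters had 0.01, and the SD between arrays of the members' median was 0.23. By class the median was 0.19 for box C/D, 0.22 for box H/ACA and 0.03 for the Cajal body RNAs.

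The 6 clusters were *Snord110*, *Snora68*, *Snord35a*, *Snora30*, *Snord14a* and *Snord35b*. *Snord110*, a box C/D snoRNA within the gene for the box C/D core protein NOP56, had signals of 16.39, 16.34, 16.39, 16.14 and 16.28 in dKO XY, against 15.7, 15.08, 15.39, 15.32 and 15.6 in control XY. All 5 dKO XY arrays lay above all 5 control XY arrays, the difference was 0.89 ± 0.15 (SE, adjusted p = 0.0015 with limma), and control XX lay between, at 15.99 ± 0.38 (SD, n = 5). *Snora68*, a box H/ACA snoRNA, had 11.14, 10.49, 10.83, 10.65 and 10.66 in dKO XY, against 10.41, 10.33, 9.56, 9.93 and 9.96 in control XY. Its groups did not overlap, although dKO XY replicate 2 was only just above control XY replicate 1, and the difference was 0.72 ± 0.15 (SE, adjusted p = 0.0056 with limma).

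*Snora30*, within the chromatin remodeller gene *Srcap*, had 9.88, 9.16, 9.41, 9.53 and 9.13 in dKO XY, against 8.87, 8.68, 8.38, 8.61 and 9.03 in control XY. The groups did not overlap, with a difference of 0.71 ± 0.14 (SE, adjusted p = 0.0039 with limma). Control XX lay beside dKO XY, at 9.53, 9.36, 9.44, 9.47 and 9.73, and was above control XY by 0.79 ± 0.14 (SE, adjusted p = 0.00045 with limma). The other 3 were box C/D clusters. *Snord35a* in *Rpl13a* averaged 14.38 ± 0.24 in dKO XY and 13.67 ± 0.26 in control XY (SD, n = 5 each), with an adjusted p of 0.0037 in limma and dKO XY replicate 2 and control XY replicate 1 both at 14.02. *Snord14a*, a U14 RNA in *Rps13* that takes part in cleavage of the ribosomal precursor, averaged 8.78 ± 0.31 and 8.09 ± 0.11, and *Snord35b* averaged 9.15 ± 0.3 and 8.52 ± 0.17, in the same order (SD, n = 5 each, adjusted p = 0.025 for both in limma). Leaving out replicate 3, 4 or 5 of dKO XY brought *Snord14a* and *Snord35b* to an adjusted p above 0.05, as did leaving out replicate 3 of control XY for both and its replicate 5 for *Snord14a* (highest adjusted p = 0.073 and 0.067 with limma), while their differences stayed between 0.62 and 0.8 and between 0.56 and 0.74. The unmoderated analysis of variance gave them adjusted p of 0.06 and 0.057 and left 4 of the 6. The count of 6 became 12 when replicate 2 of dKO XY or replicate 1 of control XY was left out, and 4 when replicate 3 of either or replicate 4 of dKO XY was.

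**Figure D2:**
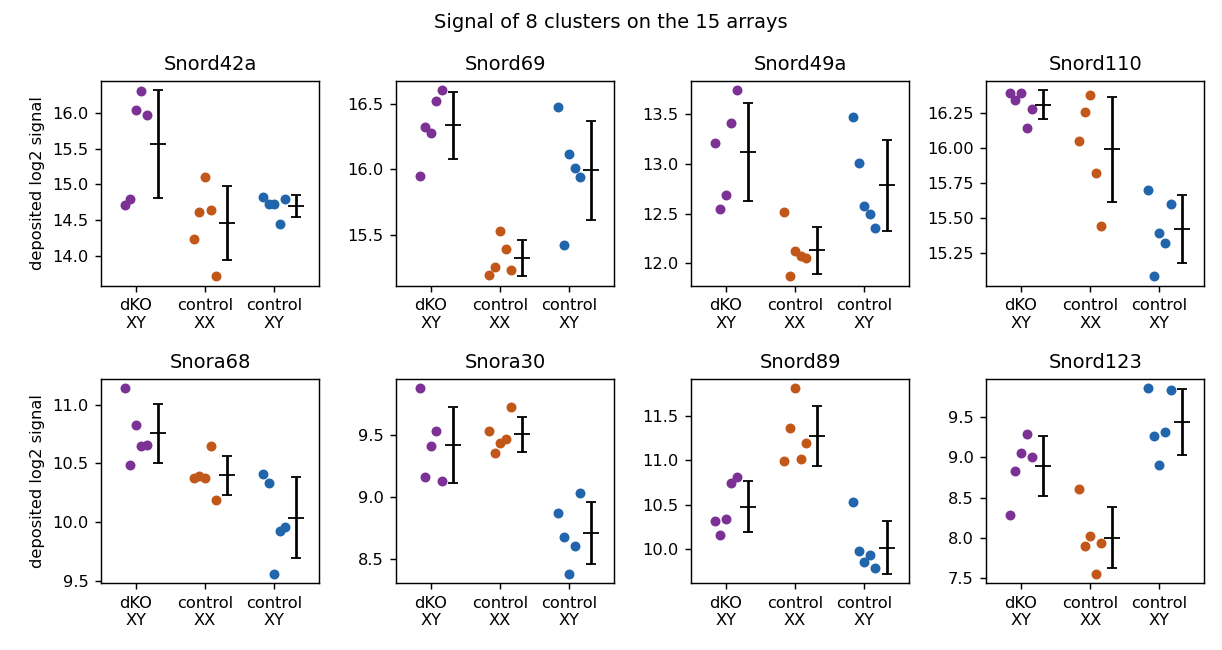
Deposited log2 signal (vertical axis) of 8 clusters on the 15 arrays, with 1 point per array and the mean ± SD of 5 arrays as a bar. *Snord69* and *Snord49a* have control XX below every dKO XY array, *Snord110*, *Snora68* and *Snora30* have control XY below every dKO XY array, and *Snord89* and *Snord123* separate control XX from control XY in opposite directions. The vertical axes do not start at 0.

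The same comparison with control XX ovaries asked how the snoRNAs of the XY gonads stood against the ovary. 2 members were called higher in dKO XY (2.74%, against 1.22% of all clusters), and 0 were called lower in limma (1.28% of all clusters), with 3 members lower at an unadjusted p below 0.05 (4.11%, against 12.1% of all clusters) and 0 called lower by the unmoderated analysis of variance. At the adjusted p alone 18 members were higher (24.7%, against 7.55% of all clusters) and 2 were lower (2.74%, against 7.51%). All 18 were box C/D clusters, which is 37.5% of the 48, and 0 of the 19 box H/ACA clusters passed in either direction (4 were higher at an unadjusted p below 0.05 in limma, 21.1% against 13.3% of all clusters). The difference between the classes was not tested. Among the 27762 clusters above the background limit, refitted without the rest, 17.7% were higher and 21 of the 44 box C/D clusters were, with 1 of 18 box H/ACA clusters. The median difference was 0.42 for box C/D, 0.04 for box H/ACA and -0.12 for Cajal body RNAs, where all clusters had 0.02. Without any 1 of the 15 arrays, 14 to 21 box C/D clusters and 0 or 1 box H/ACA cluster passed.

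**Figure D3:**
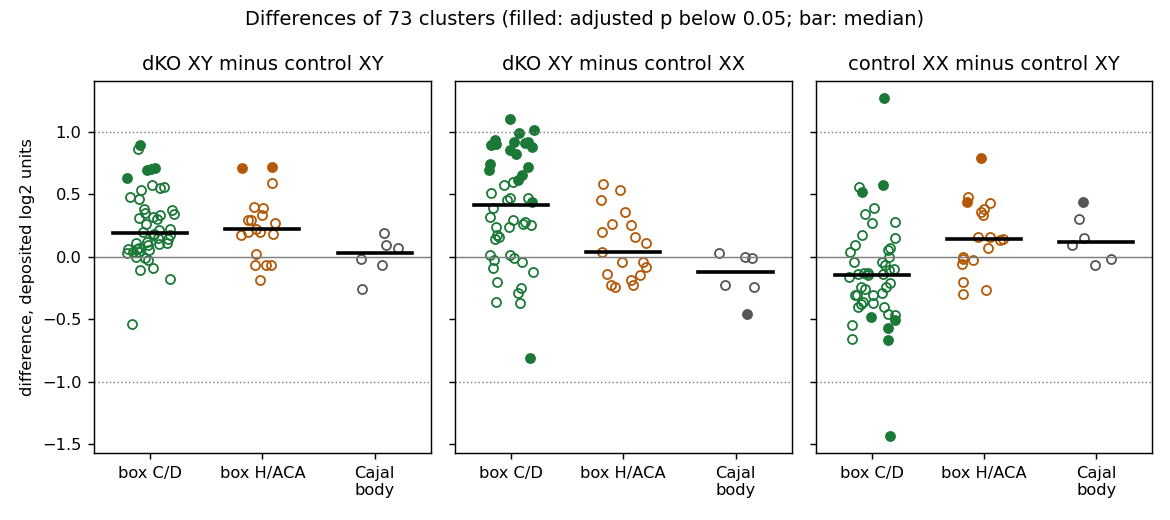
Difference of each of the 73 clusters in deposited log2 units (vertical axis) for the 3 comparisons, by class, with a filled point where the adjusted p was below 0.05, a bar at the class median and dotted lines at 1 unit either way. In dKO XY minus control XX 18 box C/D clusters are filled above 0, where no box H/ACA cluster is, and the box C/D median lies at 0.42.

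*Snord42a*, within *Rpl23a*, had the largest difference in this comparison. Its signals were 14.71, 14.79, 16.04, 16.31 and 15.97 in dKO XY, against 14.24, 14.61, 15.1, 14.64 and 13.71 in control XX. dKO XY replicates 3, 4 and 5 lay above every control XX array, replicates 1 and 2 lay within their range, and the difference was 1.1 ± 0.3 (SE, adjusted p = 0.018 with limma). Control XY was narrow, from 14.44 to 14.83, and the difference of dKO XY from it was 0.86 ± 0.3 (SE, adjusted p = 0.084 with limma). The second cluster within *Rpl23a*, *Snord4a*, averaged 9.06 ± 0.24 in dKO XY, 8.46 ± 0.18 in control XX and 9.02 ± 0.32 in control XY (SD, n = 5 each).

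*Snord69*, within the nucleostemin gene *Gnl3*, had 15.95, 16.32, 16.28, 16.52 and 16.6 in dKO XY, against 15.2, 15.26, 15.53, 15.4 and 15.24 in control XX. Every dKO XY array lay above every control XX array, by 1.01 ± 0.16 (SE, adjusted p = 0.00027 with limma). Control XY had 15.43 to 16.47, so control XX was also the lowest group there (-0.67 ± 0.16, SE, adjusted p = 0.0046 with limma). Both calls lay close to the 2-fold line. *Snord69* fell short of 1 without dKO XY replicate 4 (0.96) or 5 (0.94) and without control XX replicate 1 (0.98), 2 (0.99) or 5 (0.99), with an adjusted p of at most 0.0012. *Snord42a* was no longer called without dKO XY replicate 3, 4 or 5 (0.99, 0.92 and 1) or control XX replicate 5 (0.92), each at an adjusted p of 0.052 to 0.055. The count of 2 became 0 without dKO XY replicate 4 or 5 or control XX replicate 5, 1 without control XX replicate 2, 3 without control XX replicate 1 or 4, 4 without control XX replicate 3, and 6 and 9 without dKO XY replicates 1 and 2. A second quantile normalization left 0 called, with *Snord69* at 0.82 and *Snord42a* at 0.91, and 16 box C/D clusters at the adjusted p alone.

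The other 16 box C/D clusters that passed the adjusted p had differences of 0.44 (*Snord35a*) to 0.99 (*Snord49a*), and the 18 together carried 17 symbols on 11 chromosomes. *Snord49a*, within the long noncoding host 2410006H16Rik, had 13.21, 12.55, 12.69, 13.41 and 13.74 in dKO XY, against 12.52, 11.87, 12.13, 12.08 and 12.06 in control XX. The ranges met without overlap, with an adjusted p of 0.0073 in limma. Its neighbour in the same host, *Snord49b*, differed by 0.25 ± 0.17 (SE, adjusted p = 0.42 with limma). *Snord14a* and *Snord35b*, named above against control XY, were higher than control XX by 0.93 ± 0.19 and 0.92 ± 0.17 (SE, adjusted p = 0.0023 and 0.0012 with limma) with no overlap. *Snord35a* was the weakest, at 0.44 ± 0.14 (SE, adjusted p = 0.048 with limma), and still passed when dKO XY replicate 2, control XX replicate 3 or control XY replicate 1 or 2 was left out, but not when any of the other 11 arrays was (adjusted p of up to 0.12). It passed in 5 of 9 other settings, and a second quantile normalization reduced its difference to 0.23 (adjusted p = 0.28 with limma). *Snord111* no longer passed without any 1 of dKO XY replicates 1, 2, 4 and 5 or control XX replicates 2, 3, 4 and 5 (highest adjusted p = 0.086 with limma), and *Snord43* without dKO XY replicate 3, 4 or 5 (highest adjusted p = 0.054 with limma).

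Members of the same host were set side by side in this comparison, with no test between them. Within *Rps3a1*, *Snord73a* and *Snord73b* were higher by 0.85 and 0.88. Within *Nop58*, a box C/D core protein gene, *Snord11* was higher by 0.82 and *Snord70* differed by 0.47 with an adjusted p of 0.32. Within *Rpl3*, *Snord43* was higher by 0.72 and *Snord83b* differed by 0.24 with an adjusted p of 0.4. Within *Ncl*, the nucleolin gene, neither *Snord82* (0.01) nor *Snora75* (-0.04) passed. The limma fit over all clusters gave each of these p values.

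The 2 members lower in dKO XY than in control XX were *Snord89* and *Scarna2*, neither of which lies within a gene of the reference table. *Snord89* had 10.32, 10.16, 10.34, 10.75 and 10.81 in dKO XY, against 10.99, 11.37, 11.82, 11.02 and 11.2 in control XX. No dKO XY array reached control XX, and the difference was -0.81 ± 0.18 (SE, adjusted p = 0.0045 with limma). *Scarna2*, a Cajal body RNA that guides modification of the U2 spliceosomal RNA, had 14.44, 14.9, 14.6, 14.58 and 14.98 in dKO XY, against 14.99, 15.31, 15.3, 15.09 and 15.1 in control XX, with dKO XY replicate 5 just under the lowest control XX array. The difference was -0.46 ± 0.12 (SE, adjusted p = 0.011 with limma), and the dKO XY mean of 14.7 ± 0.23 stood beside 14.72 ± 0.19 in control XY (SD, n = 5 each).

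Between the control gonads, 1 member was called higher in control XX (1.37%, against 2.54% of all clusters) and 1 lower (1.37%, against 3.22%). At the adjusted p alone 6 members were higher (8.22%, against 10.8% of all clusters) and 5 were lower (6.85%, against 13.4%), so the shares did not exceed those of all clusters. The median difference of the members was -0.04, with -0.14 for box C/D, 0.14 for box H/ACA and 0.12 for the Cajal body RNAs. *Snord89* had the values given above in control XX, against 10.53, 9.97, 9.85, 9.93 and 9.78 in control XY. The groups did not overlap, the difference was 1.27 ± 0.18 (SE, adjusted p = 4e-05 with limma), and it stayed between 1.13 and 1.4 in every refit.

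*Snord123*, within the noncoding host *Snhg18*, ran the other way. Its signals were 8.61, 7.9, 8.02, 7.55 and 7.94 in control XX, against 9.86, 9.27, 8.91, 9.32 and 9.83 in control XY, with no overlap and a difference of -1.44 ± 0.22 (SE, adjusted p = 1e-04 with limma). In dKO XY its mean lay between and its arrays overlapped both, at 8.29, 8.83, 9.05, 9.29 and 9.01, above control XX by 0.89 ± 0.22 (SE, adjusted p = 0.01 with limma). The cluster of *Snhg18* itself averaged 8.42 in dKO XY, 8.04 in control XX and 8.88 in control XY, and control XX was lower than control XY by 0.83 on the log2 scale (-0.83 ± 0.16, SE, adjusted p = 0.00097 with limma).

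The other members higher in control XX at the adjusted p were *Snora30*, *Snord110* (0.57), *Snora78* (0.44), *Scarna2* (0.44) and *Snord118* of chromosome 11 (0.52), and the other members lower were *Snord69*, *Snord4a* (-0.57), *Snord93* (-0.51) and *Snord37* (-0.48).

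Chromosome by chromosome, the sets were small. The 8 members of chromosome 7 had a median of 0.49 in dKO XY minus control XY, 0.09 in dKO XY minus control XX and 0.16 in control XX minus control XY. The 8 members of chromosome 11 had 0.18, 0.43 and -0.19, and the 8 of chromosome 1 had 0.18, 0.09 and -0.13, in the same order of comparisons. The members of chromosome 11 lay above 0 in 8 of 8 cases against control XY and in 7 of 8 against control XX. Of all clusters, 51.7% and 53.9% lay above 0 in these comparisons. No member was placed on chromosome 12 or Y. The 3 members of the X chromosome did not pass in any comparison. *Snord61*, within *Rbmx*, averaged 15.16 ± 0.16 in dKO XY, 14.92 ± 0.45 in control XX and 15.05 ± 0.21 in control XY (SD, n = 5 each). *Snora69* in *Rpl39* averaged 8.65, 8.8 and 8.43, and *Snora35* in the serotonin receptor gene *Htr2c* stayed under the background limit, at 4.15, 4.11 and 4.13, in the same order.

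**Figure D4:**
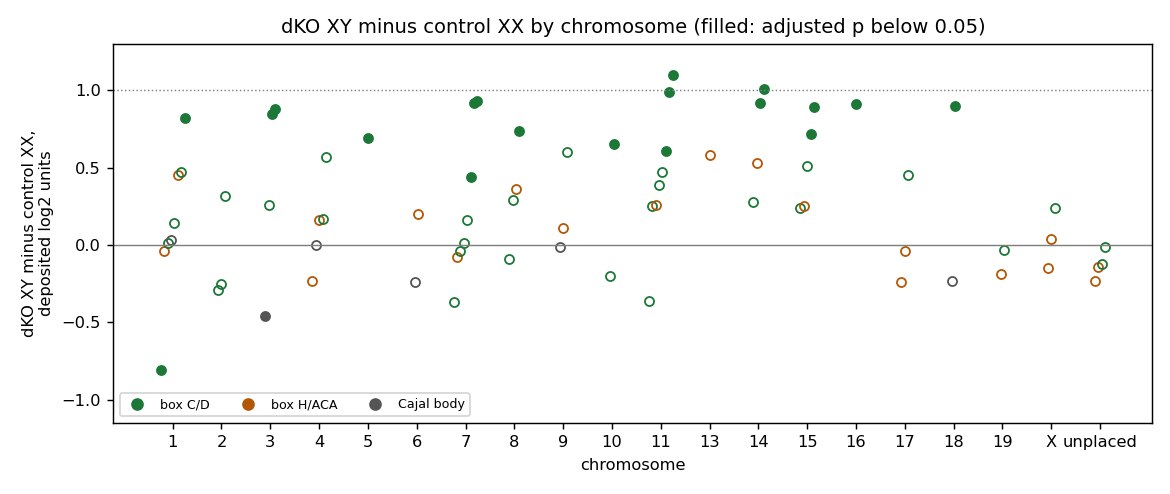
Difference of dKO XY minus control XX in deposited log2 units (vertical axis) for each cluster by the chromosome of its row ID (horizontal axis), coloured by class and filled where the adjusted p was below 0.05. The 18 filled points above 0 are box C/D clusters spread over 11 chromosomes, and the 2 filled points below 0 are *Snord89* on chromosome 1 and *Scarna2* on chromosome 3.

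Some of the best known snoRNAs were described whatever their values, among them U8 and U17, which take part in cleavage of the ribosomal precursor. *Snord118* (U8) was measured by a cluster on chromosome 11, with 5.96 ± 0.29 in dKO XY, 6.31 ± 0.09 in control XX and 5.79 ± 0.28 in control XY (SD, n = 5 each), close to the background limit. Its second cluster, on chromosome 19 by row ID, averaged 4.55 over all arrays, under the limit, and the pair correlated at r = 0.102 over the 15 arrays. *Snord13* (U13) averaged 11.78 ± 0.57 in dKO XY, 11.86 ± 0.43 in control XX and 11.77 ± 0.74 in control XY (SD, n = 5 each) in its chromosome 8 cluster and was among the most variable members. *Snora73a*, a U17 RNA within *Snhg3*, averaged 12, 12.14 and 12.07 in dKO XY, control XX and control XY, and both *Snora73b* clusters differed by -0.07 between dKO XY and control XY. *Snord17* within *Snx5* averaged 11.99 in dKO XY, 12.24 in control XX and 11.68 in control XY, where control XY replicate 2 (10.8) was apart from the rest (11.79 to 11.98). *Snord14e*, a further U14 RNA within *Hspa8*, averaged 13.25 over all arrays and differed by 0.03 between dKO XY and control XY and by -0.12 between dKO XY and control XX. None of these passed in a comparison with dKO XY. No member belonged to the *Snord113*, *Snord114*, *Snord115* or *Snord116* families. The 2 *Snord58b* clusters, by contrast, behaved as 1 measurement, with r = 0.997 and differences of 0.92 and 0.9 from control XX, and the RefSeq table lists *Snord58b* once, on chromosome 18.

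The 6 Cajal body RNAs differed from 0 by at most 0.46 in any comparison. Beside *Scarna2*, the 2 with the highest signal were *Scarna17*, at 13.65 ± 0.31 in dKO XY, 13.88 ± 0.16 in control XX and 13.58 ± 0.51 in control XY, and *Scarna9*, within *Cep295*, at 12.54 ± 0.17, 12.54 ± 0.18 and 12.45 ± 0.4 in the same order (SD, n = 5 each). *Scarna8* stayed under the background limit in every group.

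To set the members against the genes that hold them, 32 members were paired with the cluster of their single holding gene (29 genes). Only genes whose cluster names no other gene were paired, which left out both called members, *Snord69* and *Snord42a*. Some unpaired genes share a cluster with a snoRNA. In dKO XY minus control XX these gave 0.53 for *Gnl3*, 0.47 for *Nop56* and 0.35 for 2410006H16Rik. Their adjusted p in limma was 0.053, 0.0059 and 0.066. The rest of them gave 0.11 to 0.2. The 29 paired genes differed by at most 0.46 between dKO XY and control XY and 0.59 between dKO XY and control XX. Between control XX and control XY they differed by at most 0.83, so none reached 1. Of the 29 genes, *Nop58* and *Wdr43* were higher and *Rc3h2*, *Haus6* and *Cep295* were lower in dKO XY than control XX at the adjusted p alone in limma. Of all clusters, 7.55% were higher and 7.51% lower there. Between the controls, 4 of the 29 genes were higher and 4 lower in control XX (10.8% and 13.4% of all clusters were). Member and gene differed in the same direction in 21 of 32 pairs between dKO XY and control XY, 18 of 32 between dKO XY and control XX, and 19 of 32 between control XX and control XY. Across the pairs Pearson's r was 0.5, 0.37 and 0.49 in that order, and 0.33, 0.33 and 0.26 without *Snord123*, as a description over 32 pairs of which several share a gene and all share the arrays. *Snord73a* and *Snord73b* were higher than in control XX by 0.85 and 0.88 where their gene *Rps3a1* (mean signal 16.42) differed by 0.11, *Snord37* by 0.65 where *Eef2* (17.58) differed by -0.04, and *Snord11* by 0.82 where *Nop58* was higher by 0.55. *Snora30* was higher than in control XY by 0.71 where *Srcap* (11.94) differed by 0.02. Several of these genes had signals above 16, near the top of the scale.

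**Figure D5:**
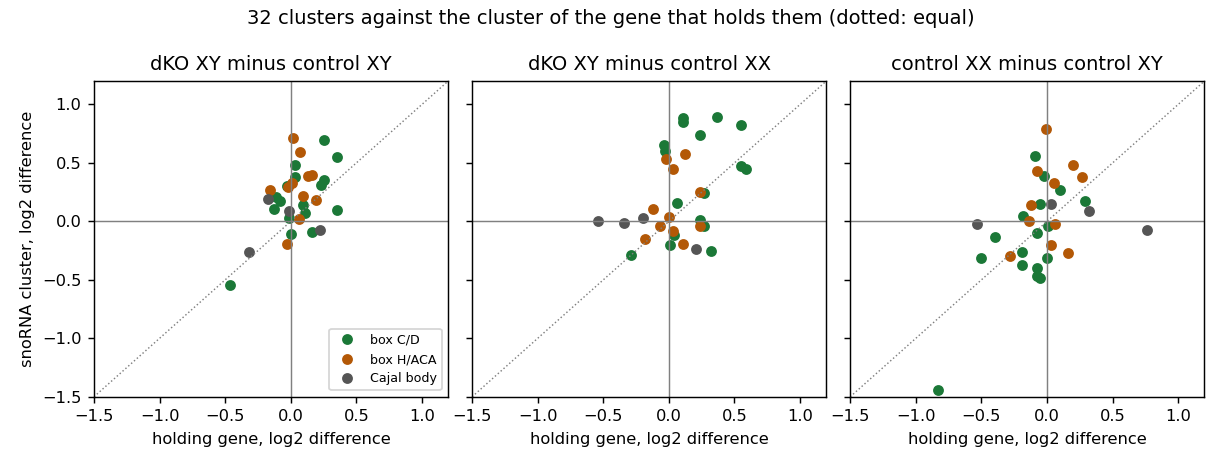
Log2 difference of 32 snoRNA clusters (vertical axis) against that of the cluster of the gene that holds them (horizontal axis) for the 3 comparisons, coloured by class, with the dotted line where both are equal. No gene reaches 1 on the horizontal axis, and the box C/D points of dKO XY minus control XX reach 0.89 on the vertical axis. The point at the lower left of control XX minus control XY is *Snord123* with *Snhg18*.

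Grouped by holding gene, 15 of the 48 box C/D clusters lay within ribosomal protein genes. Of these 15, 10 exceeded control XX in dKO XY at the adjusted p, with a median difference of 0.72, and of the other 33 box C/D clusters 8 did, with a median of 0.25. Of all clusters 7.55% did, and of those above the background limit 17.7% did in their own fit. The 15 and the 10 hold both *Snord58b* clusters, which behaved as 1 measurement. The 5 box H/ACA clusters within ribosomal protein genes had 0 that passed there and a median of 0.2. The grouping was made after the values were seen, and the difference between the groups was not tested. Ribosomal protein genes with a cluster of their own had a median near 0: over these 40 it was 0.05 in dKO XY minus control XX. Most genes that hold the 15 are not among them. *Rpl4* and *Rps3a1* are, and differed by -0.03 and 0.11. The clusters of *Rpl13a*, *Rpl23a* and *Rps3*, which also name snoRNAs, differed by 0.2, 0.2 and 0.11 there (adjusted p = 0.038, 0.14 and 0.41 with limma). Of the 40, 4 were higher and 2 lower at the adjusted p (7.55% and 7.51% of all clusters were), and 8 passed 16 on at least 1 array.

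Among the proteins that work with these RNAs, 6 of 9 core proteins had a cluster of their own. *Dkc1*, which encodes the pseudouridine synthase dyskerin, averaged 11.02 in dKO XY, 10.35 in control XX and 10.53 in control XY, and exceeded control XX in dKO XY by 0.68 ± 0.2 (SE, adjusted p = 0.028 with limma). *Nop58* (0.55 ± 0.16, adjusted p = 0.034) and *Nhp2*, of the box H/ACA particle (0.42 ± 0.12, adjusted p = 0.024), were also higher there in limma, where 7.55% of all clusters were. *Fbl*, the methyltransferase, was 11.65, 11.34 and 11.89 in dKO XY, control XX and control XY, with an adjusted p of 0.21 against control XX in limma. Between dKO XY and control XY the lowest adjusted p among the 6 was 0.14, for *Dkc1*. Of 9 assembly factors, 1 was higher and 2 were lower in dKO XY than in control XY at the adjusted p (4.41% and 6.02% of all clusters were). *Naf1*, an assembly factor of box H/ACA particles, was higher by 0.71 ± 0.13 (SE, adjusted p = 0.0017 with limma), with 11.74 in dKO XY, 11.94 in control XX and 11.02 in control XY. *Nufip1*, a box C/D assembly factor, averaged 9.6 in dKO XY, 9.06 in control XX and 10.08 in control XY, and its control XX minus control XY difference of -1.01 ± 0.12 was the 1 call in the list (SE, adjusted p = 5.5e-06 with limma). Of 9 Cajal body and nucleolar factors, *Rrp9* of the U3 particle (0.43 ± 0.09, SE) and *Utp20* of the small subunit precursor (0.5 ± 0.13, SE) were higher than in control XX at the adjusted p (7.55% of all clusters were). *Rrp9* was also lower than in control XY (-0.33 ± 0.09, SE), as were 6.02% of all clusters.

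The members differed in level from other clusters annotated as small nuclear or nucleolar. The 893 further clusters annotated as snoRNA, most of them predicted genes, had a median signal of 5.33, and their median difference was 0 in dKO XY minus control XY, 0.01 in dKO XY minus control XX and -0.05 in control XX minus control XY. The 927 clusters annotated as small nuclear RNA had medians of 0.05, 0.11 and -0.09. The U3 clusters *Rnu3a* and *Rnu3b1* differed by -0.05 and -0.09 between dKO XY and control XY and by -0.09 and 0 between dKO XY and control XX. The exception among 10 U3 clusters was *Rnu3b4* of chromosome 11, with 8.97 in dKO XY, 8.11 in control XX and 9.08 in control XY, and an adjusted p of 0.0078 for the difference of 0.87 from control XX in limma. RNAs of RNase MRP (*Rmrp*) and RNase P (*Rpph1*), which are no modification guides but are bright on these arrays, averaged 18.33 and 15.37 in dKO XY, 18.16 and 15.56 in control XX and 18.11 and 15.44 in control XY.

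Several cell type marker lists differed between the groups, each given as its mean signal per array. The 6 Sertoli cell markers had 8.84 to 9.05 on the dKO XY arrays, 5.53 to 6.09 in control XX and 9.82 to 10.13 in control XY, but this list holds *Amh*, the deleted gene. Without *Amh* the other 5 had 9.67 to 9.98, 5.77 to 6.42 and 9.58 to 9.85 in the same order, so dKO XY overlapped control XY. That mean also joined markers that differed in both directions. Against control XY, dKO XY was lower in *Dhh* (-0.85) and higher in *Cst9* (0.99) and *Aard* (0.62) at the adjusted p. *Sox9* (-0.1) and *Dmrt1* (0.08) did not pass there. The 6 granulosa cell markers had 8.18 to 8.61 in dKO XY, 9.82 to 9.97 in control XX and 6.56 to 6.73 in control XY, and the 6 meiotic germ cell genes had 11.28 to 12.4, 13.21 to 13.56 and 8.53 to 9.13, so in both lists dKO XY lay between the controls without overlap. The 5 general germ cell markers had a mean of 11.28 to 11.96 in dKO XY, overlapping control XX (11.73 to 12.1) and above control XY (10.1 to 10.91). This mean joined markers that differed in both directions. Against control XX, dKO XY was higher in *Pou5f1* (2.61) and lower in *Taf7l* (-2.52) and *Tex101* (-1.6) at the adjusted p, and *Ddx4* (0.35) and *Dazl* (-0.4) did not pass. Against control XY, *Taf7l* (2.44), *Dazl* (1.56) and *Tex101* (1.44) were higher, and *Pou5f1* and *Ddx4* (0.22 each) did not pass. The 4 interstitial markers had 9.94 to 10.7 in dKO XY, 9.61 to 10.23 in control XX and 11.73 to 12.02 in control XY, and all 4 were lower in dKO XY than in control XY at the adjusted p with limma. The 4 fetal Leydig cell markers had 15.67 to 16.21 in dKO XY, 7.35 to 8.62 in control XX and 16.03 to 16.59 in control XY. The ranges of the list means overlapped between all groups for 4 endothelial markers (9.95 to 10.78 on all arrays), 2 erythroid markers (8.43 to 11.86) and 4 macrophage markers (6.18 to 6.55). Single endothelial markers differed in both directions. Against control XX, dKO XY was higher in *Cdh5* (1.02) and *Pecam1* (0.7) and lower in *Kdr* (-0.41) at the adjusted p, and *Tek* (0.17) did not pass. The mean of 3 mesonephros markers lay under the background limit (4.76 to 5.35). Of these, *Pax8* passed the limit, with 6.2 in dKO XY, 7.05 in control XX and 6.17 in control XY, and was highest in control XX at the adjusted p. The part of these cell types in the snoRNA differences was not tested.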

How the data were processed

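Gonads were taken whole from mouse fetuses, 5 of each group, and amplified RNA was hybridised to mouse transcriptome arrays, 1 sample per array. The deposited log2 signals, 1 for each transcript cluster and array, were made by the authors with RMA-type normalization in the array maker's software. Its settings and the genome build of the row IDs are not given in the sources used here. Background and between-array differences were therefore removed before deposit. The scale departs from plain log2, and over which range is not known.

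The 65956 clusters other than control probe sets (6732 left out) were fitted with limma 3.58.1 in R 4.3.3, with 1 mean per group over all 15 arrays, eBayes and two-sided tests. P-values were adjusted across all clusters, and a call also needed a difference of 1. There was no filter on dim clusters. The fit was tested on simulated data. The number of arrays limits the precision: the SE of a member's difference had a median of 0.17 (0.09 to 0.33). No 2 arrays held identical values.

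The members and gene lists were chosen with earlier results of these data known. Named were called members, the 5 with the highest mean signal, the 3 highest Cajal body and X-linked members and well known snoRNAs; members past the adjusted p alone were named after their values were seen. Holding genes came from positions in RefSeq without strand, which the table does not give. The holding genes of some members are not reported here. The alternatives were 10 settings (among them array medians centred, a second quantile normalization, array weights, a filter on dim clusters and a replicate block) and leaving out each array in turn. Replicate numbers did not pair the samples.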

Additional observations from a re-analysis of the deposited data

Results flagged for a closer look

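Among 135 groups of 5 arrays looked at (members named in the text, class means and array controls), 13 (9.6%) held an array whose gap to the nearest of the others was over 0.71 of the whole range, which chance gives in about 1 in 20 groups. In control XY, replicate 1 was the array apart for *Snord111* (12.99, others 11.78 to 12.11), *Snord49b* (15.68, others 15.05 to 15.23), *Snord58b* of chromosome 14 (14.82, others 13.84 to 13.92), *Snord58b* of chromosome 18 (14.83, others 13.8 to 13.92), *Snord89* (10.53, others 9.78 to 9.97) and the mean of all box C/D clusters (10.97, others 10.66 to 10.74). Both *Snord58b* clusters give nearly the same values and count as 1 observation.

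Other arrays also stood apart. In control XY these were replicate 2 for *Snord17* (10.8, others 11.79 to 11.98), replicate 4 for *Snord42a* (14.44, others 14.72 to 14.83) and replicate 5 for the difference between positive and negative control probe sets (4.31, others 4.86 to 5.08). In control XX, replicate 5 was apart for *Snord14a* (7.05, others 7.87 to 8.17) and for the box C/D mean minus the box H/ACA mean (1.12, others 0.99 to 1.02). In dKO XY, replicate 3 was apart for *Snora35* (4.56, others 3.99 to 4.1, under the background limit) and replicate 5 for the unplaced *Snord13* cluster (12.51, others 11.28 to 11.61).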

How the results depend on the processing

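Between dKO XY and control XY, the 0 members called higher became 6 at the adjusted p alone and 1 with array weights, and 0 to 1 without 1 array. The 6 at the adjusted p alone (a count added after seeing the data) became 10 with a second quantile normalization, 13 with array weights, 12 with the filter on dim clusters and 4 with the unmoderated analysis of variance, and 4 to 12 without 1 array. Between dKO XY and control XX, the 2 called higher became 18 at the adjusted p alone, 1 with array medians centred, 0 with a second quantile normalization and 5 with array weights, and 0 to 9 without 1 array, and the 0 called lower became 2 at the adjusted p alone. The 0 box H/ACA clusters at the adjusted p alone (also an added count) became 1 with array weights, the control probe-set covariate or the filter on dim clusters, and 0 to 1 without 1 array. Between the controls, 1 higher and 1 lower became 6 and 5 at the adjusted p alone. The cause of these shifts was not tested.

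The replicate numbers did not pair the samples: deviations of same-numbered arrays correlated at -0.19 to -0.04, -0.17 to 0.16 and -0.11 to 0.19 in the 3 comparisons. With the number as a replicate block, 2 members were called higher in dKO XY against control XX and 19 box C/D clusters passed the adjusted p alone, against 18 without it.

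Of 37 pairs of a named member and a comparison past the adjusted p, 333 refits under other settings left 325 below 0.05 and 555 refits without 1 array left 520, with 0 changes of direction. The 5 arrays of a group and the departure of the scale from plain log2 limit small differences, those of the brightest members included.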

Other observations

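Of the 893 other clusters annotated as snoRNA, most without an established name, 46 lay on chromosome 12, 197 on chromosome 7 and 36 on the X chromosome. In dKO XY against control XY, 15 were called lower (1.68%, against 1.62% of all clusters), of which 7 lay on chromosome 12 (-1.8 to -1.01), 7 on chromosome 7 (-1.24 to -1.04, with only 3 different sets of values) and 1 on the X chromosome (-1.33), and 1 on chromosome 12 was called higher (1.04). In control XX against control XY, 10 were called lower (1.12%, against 3.22% of all clusters), and 7 of them lay on chromosome 12 (-1.59 to -1.02). Both comparisons share the control XY arrays.

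Clusters that name a snoRNA beside another gene included 3 for the *Snord116* family (*Snord116l1* and *Snord116l2* with *Ipw*) on chromosome 7, with identical values of 6.89 in dKO XY, 7.2 in control XX and 7.95 in control XY. Their difference between dKO XY and control XY was -1.07 ± 0.34 (SE, adjusted p = 0.059 with limma). The cluster of *Cct6a* with *Snora15* was higher by 0.71 in dKO XY against control XX (adjusted p = 0.0032 with limma), and that of *Scarna13* with *Mir3069* was lower by 0.69 on the log2 scale there (-0.69, adjusted p = 0.014 with limma).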
